A study of Mus musculus with 10 samples.

Results

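The molecular clock of the prefrontal cortex (PFC) was examined through 10 genes, chosen by name from the 22000 genes of the count table. They are the activators *Arntl* and *Clock*, the repressors *Per1*, *Per2*, *Per3*, *Cry1* and *Cry2*, the nuclear receptors *Nr1d1* and *Nr1d2*, and the output factor *Dbp*. All 10 passed the filter on low counts that kept 14344 genes for testing. RNA-seq was made from the PFC of 5 *Zbtb16* KO and 5 WT mice, 1 stranded mRNA library per mouse, at 7 weeks of age. KO mice carried the luxoid (*lu*) allele of *Zbtb16*, a nonsense point mutation present in every cell, on a B6.C3 background. All 10 mice are described as male and were kept in a light-dark cycle with free access to food. The hour at which each mouse was dissected is not given in the sources used here. Each mouse was therefore a single time point of unknown phase, and the questions were whether clock transcripts differed between the genotypes and whether mice differed from each other along the clock cycle.

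The clock is a feedback loop of transcription. ARNTL (also called BMAL1) and CLOCK bind E-boxes together and activate the *Per*, *Cry*, *Nr1d* and *Dbp* genes, and the PER and CRY proteins then repress that activation. REV-ERB proteins from *Nr1d1* and *Nr1d2* repress *Arntl*. *Arntl* transcripts are known to peak broadly opposite to those of *Nr1d1*, *Dbp* and the *Per* genes, which need not all peak at the same hour. In the forebrain the same genes cycle under signals from the suprachiasmatic nucleus, and *Per1* and *Per2* also respond to neuronal activity and glucocorticoids.

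Sites of this loop can be read in the DNA before the start sites of members. RefSeq promoter windows (GRCm38.p6, 250 bases before to 50 after a start) were found for 9 of the 10 members, in 13 windows. *Per2* had no window and was not searched. The 250 bases before the start are shown for 4 members that hold such a site. Capitals mark the E-box CACGTG, the D-box TTATGTAA to which DBP and its relatives bind, and AGGTCA, the core bound by REV-ERB and ROR receptors, which reads TGACCT where it lies on the opposite strand.
Per1, chr11:69098699-69098948, plus strand: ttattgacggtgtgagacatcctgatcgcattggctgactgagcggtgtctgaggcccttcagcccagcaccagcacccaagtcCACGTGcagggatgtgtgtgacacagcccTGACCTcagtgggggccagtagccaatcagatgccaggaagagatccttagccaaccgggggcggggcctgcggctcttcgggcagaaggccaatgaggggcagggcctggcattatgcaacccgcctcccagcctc
Cry1, chr10:85185055-85185304, minus strand: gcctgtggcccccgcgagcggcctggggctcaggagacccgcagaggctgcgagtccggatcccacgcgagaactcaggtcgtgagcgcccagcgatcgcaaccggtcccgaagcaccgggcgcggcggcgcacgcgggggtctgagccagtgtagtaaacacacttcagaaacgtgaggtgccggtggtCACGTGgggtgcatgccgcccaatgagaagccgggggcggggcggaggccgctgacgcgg
Per3, chr4:151044666-151044915, minus strand: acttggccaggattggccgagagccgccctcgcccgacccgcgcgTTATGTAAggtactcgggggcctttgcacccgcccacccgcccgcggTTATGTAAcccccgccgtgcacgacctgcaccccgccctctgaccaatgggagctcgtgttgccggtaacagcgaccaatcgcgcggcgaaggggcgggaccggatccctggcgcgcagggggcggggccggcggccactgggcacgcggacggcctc
Nr1d2, chr14:18239107-18239356, minus strand: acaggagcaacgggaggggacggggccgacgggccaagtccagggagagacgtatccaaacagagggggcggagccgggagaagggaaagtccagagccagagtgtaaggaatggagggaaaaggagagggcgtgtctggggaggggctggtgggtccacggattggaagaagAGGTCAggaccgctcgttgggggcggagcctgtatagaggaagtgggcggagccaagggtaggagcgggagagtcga
The E-box begins 166 bases before the start in *Per1* and 60 bases before it in *Cry1*. *Per3* holds D-boxes 205 and 158 bases before its start, and the receptor core lies 137 bases before that of *Per1* and 77 before that of *Nr1d2*. It also lies 119 bases before a start of *Clock* and, in *Arntl*, after the start. Of the 13 windows of members, 2 held the E-box, 1 the D-box and 4 the receptor core, and those of *Cry2*, *Nr1d1* and *Dbp* held none of them. Both strands were searched, and no match overlapped another. Sites outside the windows were not searched. Of all 32851 RefSeq windows, 7.15% hold the E-box, 0.938% the D-box and 16.3% the receptor core, so that the core alone is common. A match is a match of letters and was not tested for binding.

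Between 30220122 and 51231439 counts were obtained per mouse, which makes 3 counts equal to 0.0586 to 0.0993 CPM, a gene's counts scaled to a common library total. Members had 590 counts or more in every mouse, so depth did not limit them, and these limits cover counting error alone. *Zbtb16* itself lay at 42.1 to 52.8 CPM in KO mice and 70.7 to 88.3 CPM in WT mice, without overlap. Cortical markers were present in every mouse, the 6 genes of excitatory neurons summing to 1979 to 2472 CPM. Of 4 markers of suprachiasmatic, pineal or pituitary tissue, *Avp*, *Aanat* and *Six6* did not pass the filter, while *Vip*, which cortical interneurons express too, measured 32.1 to 46.0 CPM in KO mice and 45.8 to 50.7 CPM in WT mice. KO mouse 3 had 1 count in all over 4 Y-linked genes, against 4376 to 8182 in the other 9 mice, although it is described as male. KO mouse 5 had the most counts and the lowest RNA integrity number (RIN), 8.1 in a range of 8.1 to 9.8. WT mice 3 and 4 (8.2 each) and KO mouse 3 (8.3) had a RIN close to that. Values without KO mouse 5 are given beside several of the results that this mouse moves.

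A single clock gene passed the test between the genotypes. In edgeR's quasi-likelihood test, with 3 surrogate variables beside genotype, 1 of the 10 members passed an adjusted p of 0.05, which was *Per2*, higher in KO mice. Over all tested genes 121 passed (0.844%). Surrogate variables are weights per mouse that stand for unrecorded differences between libraries. Without them, 0 of the 10 members passed in the same test, while 30 of all genes (0.209%) passed. An unadjusted p under 0.05 was then found for 0 of the 10 members and 1150 of all 14344 genes. DESeq2 with the surrogate variables called 233 of all genes and, of the members, *Per2* alone. Limma called 8 of all genes and 0 members. For 0 of the 10 members did the CPM of the genotypes separate, against 1.58% of all genes. The median log2 fold change of the members was 0.03, and that of all tested genes -0.00. The fold changes of 8 members were above 0 with the surrogate variables and those of 6 without them. In bulk tissue, fewer cells that express a gene and less RNA of it per cell cannot be told apart.

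**Figure D1:**
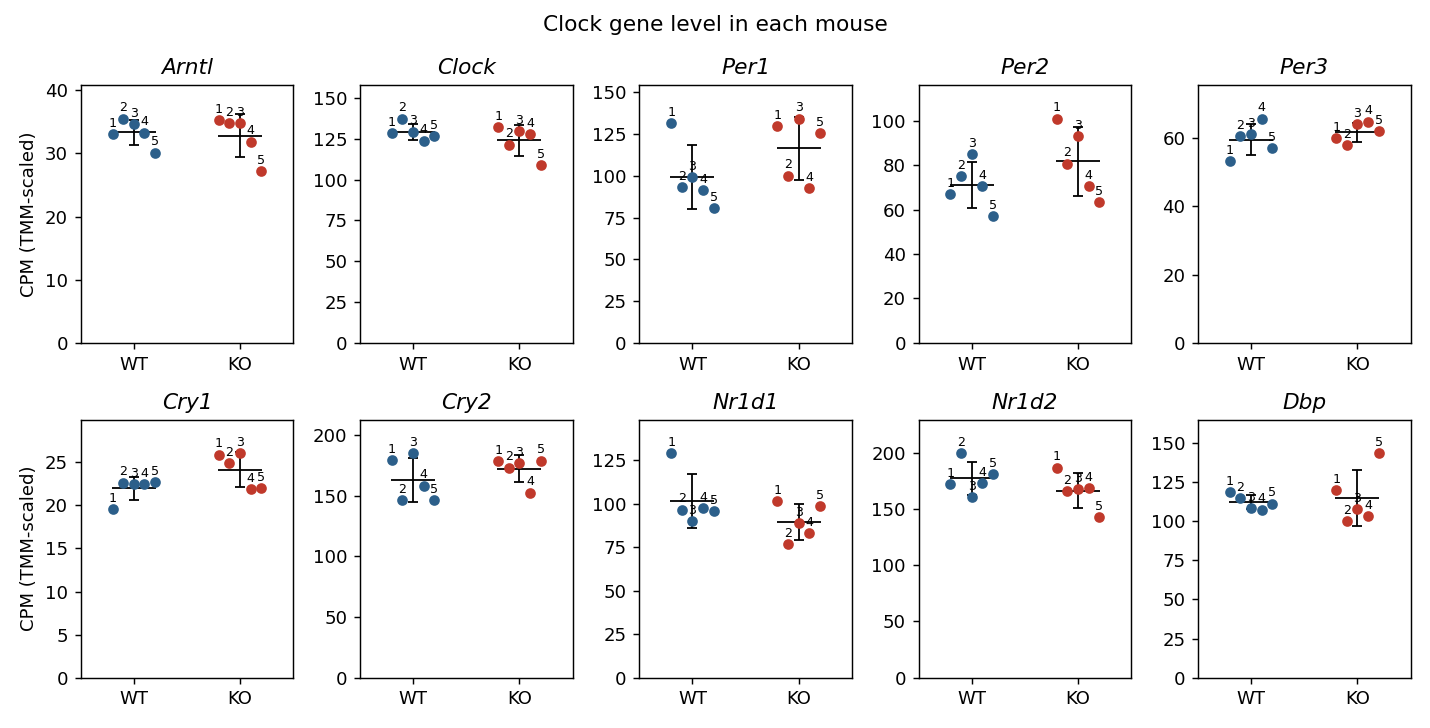
CPM after TMM scaling of the 10 clock genes, 1 panel a gene, in 5 WT (blue) and 5 KO (red) mice, each point a mouse with its replicate number and bars giving mean and SD. KO and WT points overlap in every panel. KO mouse 5 is lowest for *Arntl*, *Clock* and *Nr1d2* and highest for *Dbp*.

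Neither activator passed. *Arntl* (ENSMUSG00000055116.8, chr7:113207465-113314126 of GRCm38, plus strand) measured 35.3, 34.7, 34.9, 31.9 and 27.2 CPM in KO mice 1 to 5, and 33.1, 35.5, 34.6, 33.3 and 30.1 CPM in WT mice 1 to 5. KO mouse 5 was the lowest and WT mouse 5 the next, and the other 8 mice lay close together. The log2 fold change was 0.02 with a 95% confidence interval from -0.09 to 0.13 (adjusted p = 0.932 in edgeR's test). *Clock* (ENSMUSG00000029238.11, chr5:76209868-76304792, minus strand), whose protein is the partner of ARNTL, measured 132, 121, 129.8, 128 and 109 CPM in KO mice and 128, 137, 129, 124 and 126 CPM in WT mice. Again KO mouse 5 stood below all others. Its log2 fold change was 0.00 (interval -0.08 to 0.08, adjusted p = 0.999 in edgeR's test). Without surrogate variables both estimates were slightly below 0, at -0.03 for *Arntl* and -0.06 for *Clock*.

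Among the repressors, *Per1* and *Per2* had the largest positive differences. *Per2* (ENSMUSG00000055866.9, chr1:91415982-91459324, minus strand) measured 101, 80.7, 93.1, 70.7 and 63.4 CPM in KO mice and 66.9, 75.2, 85.1, 70.7 and 57.2 CPM in WT mice. KO mice 1 and 3 were above every WT mouse, and KO mice 4 and 5 lay at or below the WT mean. Means were 81.8 ± 15.5 CPM (SD, n = 5) in KO and 71.0 ± 10.3 CPM (SD, n = 5) in WT mice. The log2 fold change was 0.26 (standard error 0.06, interval 0.14 to 0.39, adjusted p = 0.0428 in edgeR's test). Without surrogate variables it was 0.20, the interval ran from -0.05 to 0.45 and the adjusted p was 0.719 in edgeR. An exact two-sided permutation test of the *Per2* log2 CPM, in which the mice alone are the replicates, gave p = 0.238.

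Whether *Per2* passed varied with the mice included. So did the number of all genes that passed, from 39 without WT mouse 3 to 248 without KO mouse 2. When single mice were omitted, with the surrogate variables estimated again, *Per2* passed in 3 of 10 fits, those without KO mouse 2, KO mouse 4 or WT mouse 2. Without KO mouse 5 its log2 fold change was 0.27 (adjusted p = 0.0659) and without KO mouse 3 it was 0.29 (adjusted p = 0.0896), no lower than with all mice. It was lower without KO mouse 1, at 0.18 (adjusted p = 0.396 in edgeR's test). The fold change stayed positive in all 10 fits, from 0.15 without WT mouse 5 to 0.32 without WT mouse 3. The adjusted p in these fits ran from 0.0127 without WT mouse 2 to 0.667 without WT mouse 5. In the same 2 fits the unadjusted p in edgeR's test was 6.1e-05 and 0.106. Without WT mouse 3 the unadjusted p was 0.00028, against 0.00034 with all mice, while the adjusted p was 0.0737. The adjusted p thus moved also with the results of the other genes. With RIN in place of the surrogate variables the log2 fold change of *Per2* was 0.20 and its adjusted p 0.669 in edgeR's test.

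*Per1* (ENSMUSG00000020893.17, chr11:69095217-69109960, plus strand), the E-box gene shown above, measured 129.7, 100.1, 134, 92.7 and 126 CPM in KO mice and 131, 93.3, 99.2, 91.2 and 80.6 CPM in WT mice. The KO values fell into a high set (mice 1, 3 and 5) and a low set (mice 2 and 4), and WT mouse 1 was as high as the former. Its log2 fold change of 0.25 was as large as that of *Per2* but had a wider interval, 0.07 to 0.44 (adjusted p = 0.242 in edgeR's test). *Per1* passed in 3 of the 10 fits that left out a mouse, those without KO mouse 2, KO mouse 4 or WT mouse 1, with adjusted p-values of 0.0128, 0.0316 and 0.0276 in edgeR's test. Over the 10 fits its log2 fold change ran from 0.13 without WT mouse 5 to 0.40 without KO mouse 4. It was 0.14 without WT mouse 3 and 0.16 without KO mouse 1. In the mice with a RIN of at least 9.5, fitted without surrogate variables, it was 0.08. The exact permutation test over the mice gave p = 0.175.

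*Per3*, *Cry1* and *Cry2* did not pass. *Per3* (ENSMUSG00000028957.12, chr4:151003652-151044665, minus strand), with the D-boxes, was the steadiest *Per* gene at 60.0, 58.1, 64.0, 64.8 and 62.0 CPM in KO mice and 53.3, 60.5, 61.2, 65.7 and 57.1 CPM in WT mice. *Cry1* (ENSMUSG00000020038.10, chr10:85131700-85185064, minus strand) measured 25.9, 24.9, 26.0, 21.9 and 22.0 CPM in KO mice and 19.6, 22.6, 22.5, 22.5 and 22.7 CPM in WT mice. KO mice 1, 2 and 3 were above all WT mice, and KO mice 4 and 5 fell among them. For *Cry1* the log2 fold change was 0.14, with an interval that just reached below 0 (-0.01 to 0.29, adjusted p = 0.492 in edgeR's test, exact permutation p = 0.119). *Cry2* (ENSMUSG00000068742.11, chr2:92403646-92434043, minus strand) measured 179, 173, 177, 153 and 179 CPM in KO mice and 179.5, 146, 185, 158 and 146 CPM in WT mice. KO mouse 4 was apart from the other KO mice, and the WT mice spread over the whole range. The intervals were -0.08 to 0.17 for *Per3* and -0.05 to 0.14 for *Cry2*, with adjusted p-values of 0.843 and 0.793 in edgeR's test.

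The REV-ERB genes lay on the other side of 0. *Nr1d1* (ENSMUSG00000020889.11, chr11:98767932-98775333, minus strand) measured 101, 76.8, 88.9, 82.9 and 98.5 CPM in KO mice and 129, 96.7, 89.8, 97.6 and 95.5 CPM in WT mice. None of the KO mice was above the WT mean, which WT mouse 1 raised. Its log2 fold change was -0.14 (interval -0.30 to 0.02, adjusted p = 0.543 in edgeR's test, exact permutation p = 0.183), negative in each of the 23 alternatives and past the threshold in 0 of them. Its size depended on single mice, from -0.03 without KO mouse 4, -0.04 without KO mouse 2 and -0.08 without WT mouse 1 to -0.24 without KO mouse 1 and -0.25 without WT mouse 3. *Nr1d2* (ENSMUSG00000021775.11, chr14:18204054-18239127, minus strand) measured 187, 166, 168, 169 and 143 CPM in KO mice and 172, 199.5, 161, 173 and 181 CPM in WT mice. KO mouse 5 was again the lowest. The log2 fold change of *Nr1d2* was -0.01 with the surrogate variables (interval -0.09 to 0.08, adjusted p = 0.975 in edgeR's test) and -0.09 without them (interval -0.23 to 0.05).

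*Dbp* (ENSMUSG00000059824.12, chr7:45705088-45710203, plus strand), a transcription factor through which the clock drives D-box genes, measured 119.9, 99.9, 108, 103 and 143 CPM in KO mice and 118, 115, 109, 107 and 111 CPM in WT mice. The WT mice were tight, with a coefficient of variation of 4.08% against 15.4% in KO mice. KO mouse 5 was the highest mouse, while KO mice 2 and 4 were below every WT mouse. Its log2 fold change was 0.01 (interval -0.11 to 0.12, adjusted p = 0.984 in edgeR's test). Counts of *Dbp* and *Nr1d1* are uncertain in part, since 18.0% of the exon bases of *Dbp* overlap exons of *Sphk2* and 8.55% of those of *Nr1d1* overlap *Thra*, both on the opposite strand, and whether counting used the strand is not given in the sources used here.

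**Figure D2:**
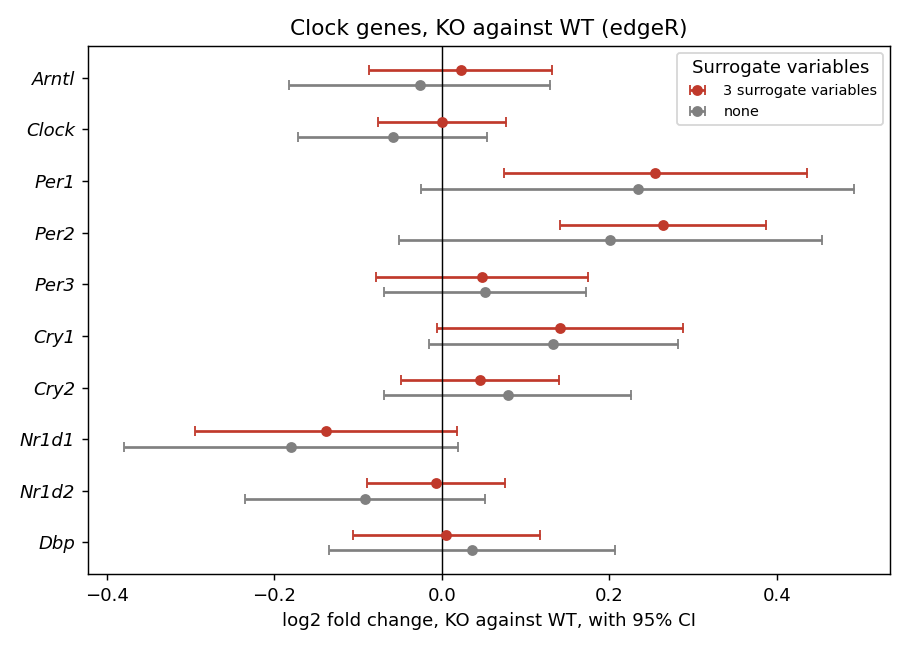
Log2 fold change of each clock gene, KO against WT, from edgeR with 3 surrogate variables (red) and without (grey), with 95% confidence intervals. The intervals of *Per1* and *Per2* lie above 0 with the surrogate variables and reach below 0 without them, and all others include 0.

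Levels were compared between genes per kilobase of exon, as CPM per kilobase. In WT mice *Dbp* was highest at 37.4 ± 1.53, followed by *Nr1d1* at 33.1 ± 5.05, *Nr1d2* at 32.8 ± 2.65 and *Cry2* at 25.8 ± 2.89 (SD, n = 5 each). *Per1* at 17.6 ± 3.41, *Per2* at 12.1 ± 1.76 and *Clock* at 9.40 ± 0.37 formed the middle (SD, n = 5 each). *Cry1* at 6.58 ± 0.40, *Per3* at 6.20 ± 0.48 and *Arntl* at 4.43 ± 0.27 were lowest (SD, n = 5 each). The WT ranges of neighbours in this order overlapped except at 3 steps, from *Nr1d2* to *Cry2*, from *Clock* to *Cry1* and from *Per3* to *Arntl*. The targets of the activators thus spanned a wide range of levels per kilobase, with *Arntl* below all of them. The order depends on the length used, which was that of all annotated exons of a gene joined. In CPM the WT mean of *Cry1*, 22.0, was below that of *Arntl*, 33.3.

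The spread of clock genes between mice was ranked among all tested genes. The residual SD of log2 CPM within genotype, ranked among all 14344 tested genes, placed *Per1* (SD 0.25) at the 78.9th percentile, *Per2* (0.25) at the 78.2nd and *Nr1d1* (0.19) at the 69.5th. *Dbp* followed at the 61.4th percentile. At the other end, *Clock* (0.09) stood at the 31.0th percentile and *Per3* (0.09) at the 32.9th. The median percentile of the 10 members was 53.1. Genes were not matched on level in this ranking. It therefore cannot say whether clock genes vary more between mice than other genes of like level. The ratio of the highest to the lowest mouse was 1.77 for *Per2*, 1.68 for *Nr1d1* and 1.67 for *Per1*, and 1.23 for *Per3*, against a median of 1.32 over all tested genes.

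The order of mice differed from gene to gene. KO mouse 5 was the lowest mouse for 3 members and the highest for 1, and WT mouse 2 the highest for 3. KO mouse 1 was above the mean of all mice for 9 of the 10 members, *Per3* being the exception, and KO mouse 4 was neither the highest nor the lowest for any.

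**Figure D3:**
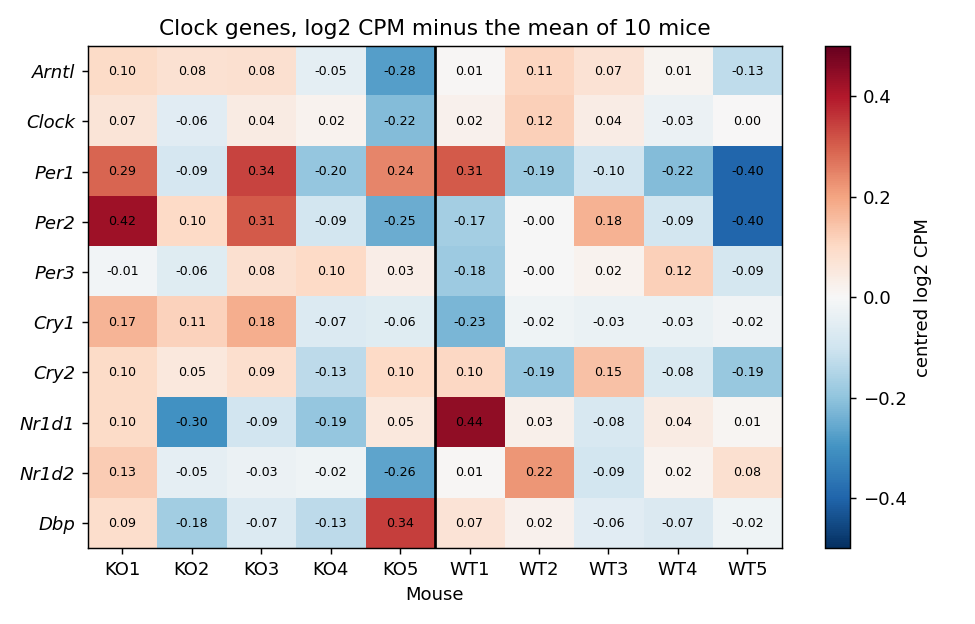
Log2 CPM of each clock gene minus its mean over the 10 mice, with genes in rows and mice in columns (red above, blue below the mean). KO mouse 5 has the lowest *Arntl* (-0.28) and the highest *Dbp*.

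To ask whether mice lay at different points of the cycle, a clock index was taken as the mean centred log2 CPM of *Per1*, *Per2*, *Per3*, *Nr1d1*, *Nr1d2* and *Dbp* minus that of *Arntl*. It is high where the target arm is up and *Arntl* is down. The index was 0.07, -0.17, 0.01, -0.04 and 0.30 in KO mice 1 to 5 and 0.07, -0.09, -0.09, -0.05 and -0.01 in WT mice 1 to 5. KO mouse 5 stood highest, and the highest of the other 9 was 0.07. The mean was 0.03 ± 0.17 (SD, n = 5) in KO and -0.03 ± 0.07 (SD, n = 5) in WT mice. The genotypes differed by 0.07, which was within the spread of the KO mice. Without KO mouse 5 the difference was 0.00. In KO mouse 5 *Arntl* was at -0.28 in centred log2 CPM, while the mean of its target arm was at 0.03. That mean joined opposite values, *Dbp* at 0.34 and *Per1* at 0.24 against *Nr1d2* at -0.26 and *Per2* at -0.25. *Nr1d1* was at 0.05 and *Per3* at 0.03. KO mouse 1 had the highest target arm (0.17), with *Arntl* at 0.10 as well.

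**Figure D4:**
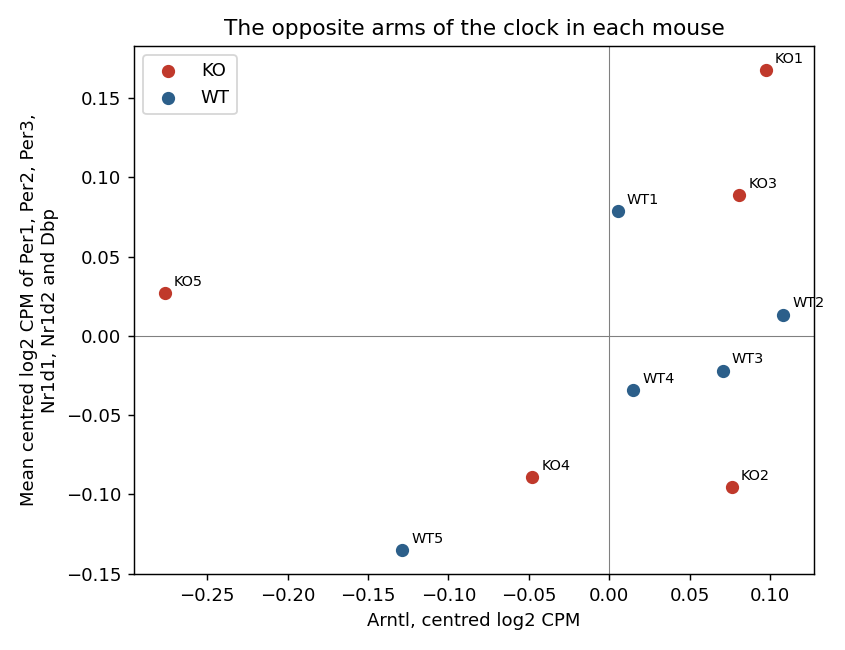
Mean centred log2 CPM of the 6 target genes against that of *Arntl*, each point a mouse (KO red, WT blue). The known opposition of the arms runs from the upper left to the lower right. KO mouse 5 lies alone at the left (-0.28, 0.03), and KO mice 1 and 3 and WT mouse 5 lie on the other diagonal.

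Correlations between clock genes were mixed in sign. Over the 10 mice, *Arntl* was correlated negatively with 3 of the 6 target genes, and 7 of the 15 pairs within the target arm were positive. Without KO mouse 5 these counts were 1 of 6 and 8 of 15. Since the target genes need not peak at the same hour, mixed signs cannot tell whether mice differed in phase. Of all 45 pairs, 0 passed after Benjamini-Hochberg adjustment of the permutation p-values, and 5 had an unadjusted p under 0.05, all 5 with a positive r. After centring within genotype 1 pair passed, *Per2* with *Arntl*.

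*Per2* and *Arntl*, from opposite arms, had r = 0.75 across the 10 mice (permutation p = 0.0107, adjusted 0.154) and rho = 0.84 (permutation p = 0.00377, adjusted 0.111). Leaving out KO mice 1 and 3, the farthest from the median of *Per2*, gave r = 0.76, and leaving out KO mouse 5 gave 0.83. Centred within genotype r was 0.87, with an adjusted p of 0.0406 from the exact permutations within genotype.

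*Arntl* and *Clock*, the partner activators, had r = 0.80 (permutation p = 0.0137, adjusted 0.154) and rho = 0.75 (permutation p = 0.0171, adjusted 0.256). It was 0.40 without KO mouse 5, 0.43 without KO mouse 5 and WT mouse 5, and 0.82 centred within genotype. *Clock* and *Nr1d2* had r = 0.85 (permutation p = 0.00422, adjusted 0.154) and rho = 0.55 (permutation p = 0.103, adjusted 0.514). That r was 0.66 without KO mouse 5, 0.29 without KO mouse 5 and WT mouse 2, and 0.83 centred within genotype.

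*Per1* and *Cry2*, which belong to the same repressor complex, had r = 0.78 (permutation p = 0.00999, adjusted 0.154) and rho = 0.65 (permutation p = 0.0491, adjusted 0.45). Without KO mouse 3 and WT mouse 1 r was 0.75, and centred within genotype 0.74. *Per2* and *Cry1* had r = 0.72 (permutation p = 0.0198, adjusted 0.178) and rho = 0.61 (permutation p = 0.0676, adjusted 0.45), and r was 0.36 without KO mice 1 and 3.

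*Arntl* and *Dbp*, whose peaks are known to be opposite, had r = -0.61 (permutation p = 0.071, adjusted 0.446) but rho = -0.09 (permutation p = 0.812, adjusted 0.891). The negative r rested on 1 mouse, as it was 0.13 without KO mouse 5. Other pairs with *Dbp* moved further without that mouse. *Clock* with *Dbp* went from r = -0.50 to 0.65, and *Nr1d2* with *Dbp* from -0.35 to 0.61. *Nr1d1* and *Dbp*, which are known to peak close together, had r = 0.55 (permutation p = 0.114, adjusted 0.461) and rho = 0.83 (permutation p = 0.00493, adjusted 0.111). Without KO mouse 5 their r was 0.85, and without KO mouse 2 and WT mouse 1 it was 0.62.

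**Figure D5:**
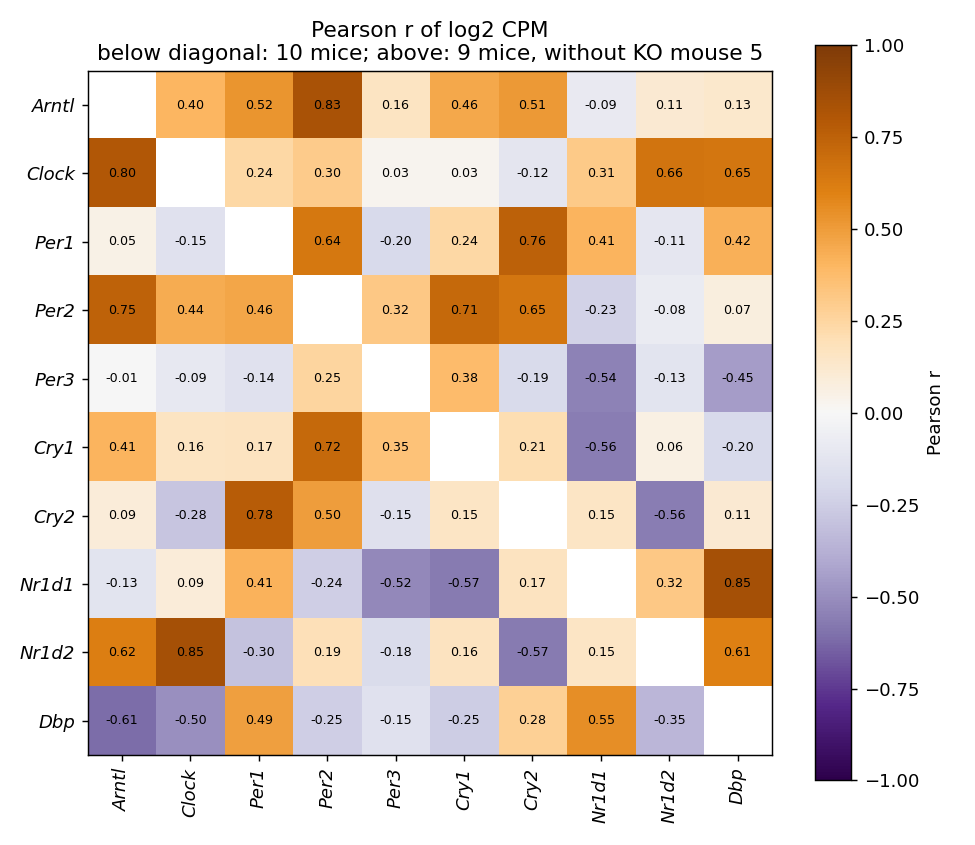
Pearson r of log2 CPM for each pair of clock genes, over 10 mice below the diagonal and over 9 mice, without KO mouse 5, above it. *Arntl* with *Dbp* goes from -0.61 to 0.13, while *Per2* with *Arntl* is 0.75 and 0.83.

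Other measures moved with the same mice. The first surrogate variable was 0.87 in KO mouse 5 and between -0.30 and 0.11 in the others, and log2 CPM correlated with it at r = -0.92 for *Arntl*, -0.92 for *Clock* and -0.81 for *Nr1d2* over the 10 mice, as a description since it was estimated from these libraries. With RIN, 0 of the 10 members had a correlation that passed, and 0 had an unadjusted permutation p under 0.05. The strongest were *Nr1d2* (r = 0.60, permutation p = 0.0622, adjusted 0.364, rho = 0.43 with permutation p = 0.222 and adjusted 0.858) and *Per3* (r = -0.58, permutation p = 0.0727, adjusted 0.364, rho = -0.55 with permutation p = 0.102 and adjusted 0.858). Without KO mouse 5 and WT mouse 3, which with WT mouse 4 are farthest from the median RIN, r was 0.27 for *Nr1d2* and -0.65 for *Per3*. Striatal markers, as a sum over 6 genes, were at 219 to 336 CPM in KO mice and 174 to 404 CPM in WT mice, with KO mice 4 and 5 and WT mouse 5 the highest. The part of RNA quality, depth and dissection in the values of KO mouse 5 was not tested.

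Further clock genes were counted from a list of 23, of which 22 were tested. In edgeR's test 0 of the 22 passed, and 5 had an unadjusted p under 0.05, against 1522 of all 14344 genes. Of the 22, 13 had a fold change above 0, with a median log2 fold change of 0.02. DESeq2 and limma also called 0 of them. The 5 with the smallest p were *Hlf*, a relative of *Dbp* (log2 fold change 0.13, adjusted p = 0.162), *Ciart*, a repressor of the activators (0.22, adjusted p = 0.216), *Rorb*, a ROR receptor (0.26, adjusted p = 0.227), *Bhlhe40*, an E-box repressor (0.16, adjusted p = 0.286) and *Wee1*, a kinase gene under clock control (0.12, adjusted p = 0.453), all in edgeR's test. Without surrogate variables 1 of the 22 had an unadjusted p under 0.05 in edgeR's test, against 1150 of all genes. The log2 fold changes were then 0.04 for *Hlf*, 0.30 for *Ciart*, 0.14 for *Rorb*, 0.01 for *Bhlhe40* and 0.03 for *Wee1*.

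Since *Per1* and *Per2* also respond to activity and glucocorticoids, lists of such genes were counted beside them. These lists were chosen with earlier results of these data known. Their counts are therefore a description, and no independent comparison with all genes. Of 12 activity-induced genes, 0 passed in edgeR's test and 4 had an unadjusted p under 0.05, against 1522 of all 14344 genes. All 12 had a fold change above 0, with a median of 0.34 on the log2 scale. DESeq2 and limma called 0 of the 12. *Nr4a1* (0.44, adjusted p = 0.316) and *Arc* (0.85, adjusted p = 0.34) had the smallest p in edgeR's test. Of 8 glucocorticoid-induced genes, 4 passed, against 0.844% of all genes, and all 8 were above 0, with a median of 0.41. Without surrogate variables 1 passed, against 0.209% of all genes, and the median was 0.23. DESeq2 called 4 of the 8 and limma 1, against 233 and 8 of all genes. *Sgk1* (0.77, adjusted p = 2.6e-06) and *Fkbp5* (0.51, adjusted p = 0.00063) led in edgeR's test, and without surrogate variables their adjusted p-values were 0.407 and 0.627. Whether these changes and those of the *Per* genes are related was not tested.

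Genes outside the set were ranked by the Pearson r of their log2 CPM with the clock index over the 10 mice, as a description, among 14334 genes. The 5 highest were *Tsr2* (0.97), *Mrpl55* (0.95), a mitochondrial ribosomal protein gene, *Ttc9b* (0.95), *Ctnna2* (0.94), an alpha-catenin of neurons, and *Cdc42se2* (0.93). The 5 lowest were a gene listed by a clone name (-0.96), *Eml5* (-0.96), *Fv1* (-0.94), *Enoph1* (-0.94) and *Erbb3* (-0.93), a receptor of the neuregulin pathway. Without KO mouse 5 the 5 highest had an r of 0.79 to 0.92 and the 5 lowest of -0.89 to -0.80. None of these 10 is among the 23 further clock genes. *Ciart* came nearest of those, at r = 0.86 and rank 60 from the top, and *Npas2*, the paralog of *Clock*, had the most negative r of them, -0.75 at rank 376 from the bottom.

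*Ciart* measured 19.9, 14.7, 18.9, 22.8 and 33.4 CPM in KO mice and 18.2, 19.3, 16.0, 17.6 and 18.4 CPM in WT mice. *Npas2* measured 49.7, 53.1, 50.4, 44.5 and 39.0 CPM in KO mice and 44.8, 45.4, 49.9, 48.5 and 49.2 CPM in WT mice. KO mouse 5 was thus the highest for *Ciart* and the lowest for *Npas2*. With the index and the ranks taken without KO mouse 5, r was 0.54 for *Ciart* and -0.35 for *Npas2*. *Rorb* was at 0.44 over the 10 mice and 0.45 without KO mouse 5. *Tef* was at 0.44 and -0.13, *Nfil3* at -0.64 and -0.09, and *Btrc* at -0.63 and 0.24, so these 3 values rested on KO mouse 5.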

How the data were processed

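RNA-seq of the PFC of 5 KO and 5 WT mice was analysed, with genotype and replicate number taken from the labels. The authors mapped 101-base read pairs to mm10 with STAR (2.7.1a), kept unique alignments and counted them on exons of protein-coding Gencode M21 genes with HTSeq (0.9.1). The deposited values are these raw counts, and each library is a separate mouse. The members and the other gene lists were chosen with earlier results of these data known.

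Counts were scaled by TMM and tested with edgeR (4.0.16, R 4.3.3) by its quasi-likelihood test after filterByExpr, with 3 surrogate variables from sva (3.50.0), the default number, from log2(CPM + 1), seed 1. P-values were adjusted by Benjamini-Hochberg over all tested genes, with a threshold of 0.05. The pipeline was tested on simulated data. Log2 CPM had a prior count of 2. Single members were compared by exact two-sided permutation tests over 252 groupings, with a smallest possible p of 0.00794. Correlations across mice had two-sided permutation tests with 100000 resamples, adjusted over 45 pairs or 10 members. Values centred within genotype were permuted exactly within genotype, in 14400 ways.

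Named genes were the 10 members, *Zbtb16*, the 5 further clock genes with the smallest p, the 5 genes with the highest and the 5 with the lowest r to the clock index, leaving out Gm and Rik names, ranks of further clock genes (1 is not reported here), and the 2 genes of smallest p in the activity and glucocorticoid lists. *Ciart* and *Npas2* values by mouse were added after their ranks were seen. Alternatives covered surrogate variables, RIN, replicate block, DESeq2 (1.42.0), limma (3.58.1), scaling, filter, index genes and omitted mice. Surrogate variables on TMM-scaled CPM, fits excluding KO mouse 5 or KO mice 3 and 5, and the likeness without KO mouse 5 were added after seeing the data. Correlations and figures were made in Python 3.11.15 (matplotlib 3.10.9, scipy 1.17.1, pandas 2.3.3, numpy 2.4.6).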

Additional observations from a re-analysis of the deposited data

Results flagged for a closer look

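Of 22 groups of 5 mice examined for a mouse far from the rest (10 members and the clock index, each in KO and in WT mice), 3 had one by Dixon's test, where chance gives about 1 in 20. *Cry1* was at 19.6 CPM in WT mouse 1, below 22.5 to 22.7 CPM in the other WT mice. *Nr1d1* was at 129 CPM in WT mouse 1, above 89.8 to 97.6 CPM in the others. *Cry2* was at 153 CPM in KO mouse 4, below 173 to 179 CPM in the other KO mice. WT mouse 1 thus combined the lowest *Cry1* and the highest *Nr1d1* of all 10 mice, with a RIN of 9.8.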

How the results depend on the processing

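The number of members that passed was 1. It was 0 with no, 1 or 2 surrogate variables, RIN in their place, or limma, which called 8 of all genes. It was also 0 in the 6 mice whose RIN was at least 9.5, fitted without surrogate variables, where 1 gene in all passed. With KO mouse 5 or KO mice 3 and 5 excluded and no surrogate variables it was 0 as well. It ranged from 0 to 2 over the fits that each left out 1 mouse, and was 1 with DESeq2, RLE scaling, no filter or surrogate variables from TMM-scaled CPM. With the replicate number as a block (replicate block, no surrogate variables) it was 0, and *Per2* stood at 0.19 on the log2 scale (adjusted p = 0.482, edgeR). What same-numbered mice share beyond the number is not given in the sources used here. Their deviations correlated at -0.06 to 0.16. Among the 5 mice of the other genotype, 5 of 10 mice correlated best with the one of their own number. No chance level was computed for that count. Against the fit with neither block nor surrogate variables, the standard error of *Per2* fell from 0.119 to 0.074. Its unadjusted p in edgeR fell from 0.110 to 0.024. The standard error of *Cry1* alone among the members rose, from 0.070 to 0.075. Whether the numbers mark pairs was not tested. Over all alternatives the adjusted p of *Per2* ran from 0.00284 with DESeq2 to 0.782 without KO mice 3 and 5 and without surrogate variables.

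Directions near 0 were not fixed. The log2 fold change of *Clock* was -0.059 with no surrogate variables, -0.058 with RIN in their place and -0.061 with the replicate block. With 1 surrogate variable it was -0.015, and with 2 it was -0.017. In 3 fits on fewer mice the surrogate variables were dropped as well. There it was -0.038 at a RIN of 9.5 or above, -0.019 with KO mice 3 and 5 excluded and -0.014 with KO mouse 5 excluded. With KO mouse 5 omitted and the surrogate variables kept it was 0.0077. That of *Arntl* was -0.026 with no surrogate variables, -0.027 with RIN and -0.028 with the block. *Dbp* was at -0.035 with 1 and -0.032 with 2 surrogate variables. In the same fits on fewer mice without surrogate variables, *Dbp* was at -0.091 at a RIN of 9.5 or above. It was at -0.055 with KO mice 3 and 5 excluded and -0.058 with KO mouse 5 excluded. With KO mouse 5 omitted and the surrogate variables kept it was at -0.0092. Omitting 1 mouse gave -0.0083 to 0.022 for *Clock*, -0.019 to 0.044 for *Arntl*, -0.075 to 0.095 for *Dbp*, -0.022 to 0.10 for *Per3*, -0.028 to 0.081 for *Cry2* and -0.036 to 0.033 for *Nr1d2*.

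The index difference between genotypes, 0.07, stayed within the spread between mice with other scalings, prior counts and genes, and was 0.00 to 0.12 when 1 mouse was left out. The first principal component of the members, on its own scale, differed by 0.31. On it KO mice ran from -0.28 to 0.54 and WT mice from -0.59 to 0.16. It is another axis than the index, since *Arntl* (weight 0.14) had the same sign in it as *Per1* (0.70) and *Per2* (0.59). The number of correlated pairs was 0, and 1 after centring within genotype. The median residual SD of the members was 0.13, and 0.10 to 0.14 when 1 mouse was left out. The causes of these changes were not tested. With 1 dissection per mouse and no recorded hour, neither phase nor amplitude can be measured here, and the counts of members that overlap other genes depend on the strand setting of the counting.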
